A study of Mus musculus with 8 samples.

Results

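Genes that write, maintain, read out and remove cytosine methylation in DNA were followed in sorted mouse hematopoietic stem cells. The 10 genes, taken by name, are Dnmt1, Dnmt3a, Dnmt3b, Uhrf1, Uhrf2, Tet1, Tet2, Tet3, Idh1 and Idh2, out of 52224 genes in the deposited table. All 10 were in the table and passed the filter on low values. The cells came from bone marrow and carried the surface phenotype CD48-CD150+LSK (lineage-negative, Sca-1-positive, Kit-positive), and their RNA was sequenced in 4 libraries labelled DekCon and 4 labelled DekTg. These names are the genotypes; the labels give no allele, promoter, strain or age for either, and whether the 4 libraries of a group are 4 mice is not stated. The p-values rest on the spread among these libraries, which may be technical in part.

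DNA methyltransferases add a methyl group to cytosine, mostly where a guanine follows. Dnmt3a and Dnmt3b set new methylation, while Dnmt1 copies it to the daughter strand after replication, guided by Uhrf1, which binds half-methylated DNA. TET enzymes oxidize the methyl group with oxygen and 2-oxoglutarate as cosubstrates, and the isocitrate dehydrogenases Idh1 and Idh2 make 2-oxoglutarate in cytosol and mitochondria. DNMT3A, TET2, IDH1 and IDH2 are recurrently mutated in human clonal hematopoiesis and myeloid leukemia, and loss of Dnmt3a or Tet2 in mouse stem cells is known to favour self-renewal.

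Each library held between 2525884 and 4101132 reads, recovered from the deposited values. Dek was listed at 395 to 632 normalized reads in DekCon and at 1862 to 2710 in DekTg (two-sided exact permutation test, p = 0.0286, the smallest this design allows), but its 4 DekTg values are not whole numbers of reads. The stem cell markers Mecom, Hlf, Fgd5 and Procr were detected in all 8 libraries. Libraries 1 and 4 of each group resembled each other more than other pairs of the same group: their chi-square per degree of freedom over genes was 1.58 in DekCon and 1.67 in DekTg, against 3.63 to 7.83 for the other pairs. Sampling noise alone would give 1, but a value above 1 does not show that libraries 1 and 4 came from separate mice or RNA. They were kept as separate libraries, so n = 4 may overstate the number of independent samples. Values with their mean counted as 1 sample are in the closing section. DekCon replicate 2 differed from its 3 group mates at 5.24 to 7.83. Of the stem cell markers just named, Procr (13.4), Hlf (161) and Mecom (127) had their lowest value of the 8 libraries in it. Of the 10 stem cell markers listed, 6 had their highest value there.

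No difference between DekTg and DekCon passed the test for any of the 10 genes. Of 37414 genes tested, 13 passed limma's adjusted threshold of 0.05, or 0.0347%, and 0 of the 10 were among them; edgeR and DESeq2 on the recovered reads called 0 of the 10 as well. At an unadjusted limma p under 0.05, 1 of the 10 remained, Dnmt1, where 6.93% of all genes tested lie. Groups overlapped for all 10, against 3.97% of tested genes whose groups did not. Log2 differences, DekTg minus DekCon, ran from -0.34 for Uhrf1 to 0.12 for Tet1 on the scale log2(value + 1), with standard errors from 0.11 to 0.18. Their median was -0.12, against 0.0057 over all genes tested and -0.10 over the 7602 tested genes with a mean of at least 100 normalized reads. Of those 7602 genes 71.0% lay below 0, as did 8 of the 10. The 95% intervals from limma, each taken alone, reached no lower than a ratio of 0.615 (Uhrf1) and no higher than 1.28 (Tet1), so 2-fold differences lay outside every interval. With quantile normalization the median of the 10 was -0.0049 and 5 of 10 lay above 0.

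**Figure D1:**
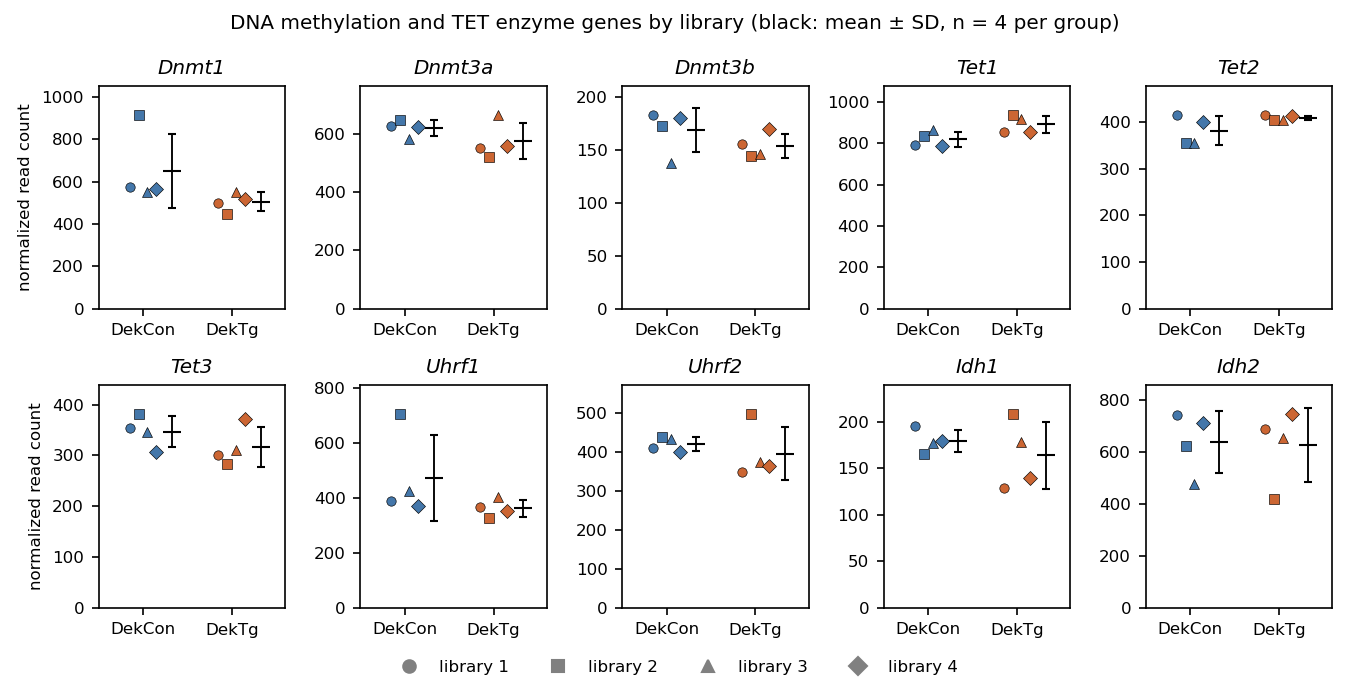
Normalized read count of each of the 10 genes (vertical axis from 0) in the 4 DekCon and 4 DekTg libraries; each symbol is 1 library, and the black bar is the mean ± SD (n = 4). The groups overlap for every gene, and the square for DekCon library 2 stands above all others for Dnmt1 (915) and Uhrf1 (704).

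**Figure D2:**
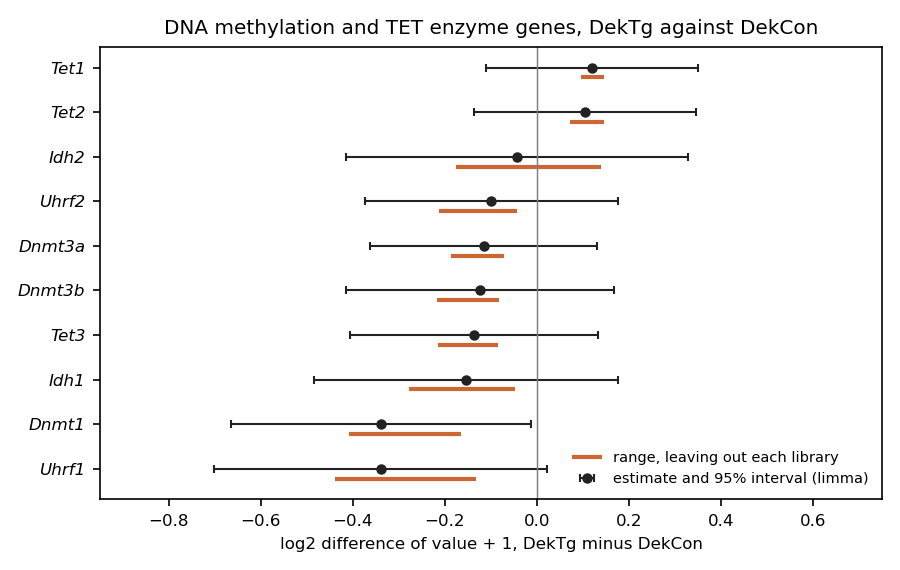
Log2 difference of value + 1, DekTg minus DekCon, for the 10 genes: points with black bars are the limma estimates with 95% intervals, and orange bars span the estimates obtained on leaving out each library in turn. Estimates run from -0.34 (Uhrf1) to 0.12 (Tet1), and the longest orange bars include those of Idh2, Uhrf1 and Dnmt1.

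Maintenance methylation was represented by Dnmt1 and Uhrf1. Dnmt1 (chromosome 9, 20907209 to 20959888, minus strand, GRCm38) gave 577, 915, 549 and 567 normalized reads in DekCon libraries 1 to 4 and 501, 447, 552 and 520 in DekTg. All 4 DekTg values lay below the DekCon mean, but DekTg replicate 3 exceeded DekCon replicate 3, and 1 DekCon library was far above the rest. The mean was 652 ± 176 for DekCon and 505 ± 44 for DekTg (SD; n = 4), a log2 difference of -0.34 (SE 0.15, 95% interval -0.66 to -0.01, limma adjusted p = 0.711).

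Uhrf1, the ubiquitin ligase that recruits Dnmt1 to newly replicated DNA, lies on chromosome 17 from 56303321 to 56323486 on the plus strand. Its values were 390, 704, 427 and 372 in DekCon and 366, 327, 404 and 352 in DekTg. The same library, DekCon replicate 2, was highest, and the other 7 lay between 327 and 427. The difference was -0.34 (SE 0.17, 95% interval -0.70 to 0.02, limma adjusted p = 0.727), from 473 ± 156 to 362 ± 32 (SD, n = 4 each).

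Both differences rested largely on that library. Without DekCon replicate 2, Dnmt1 averaged 564 ± 14 in the remaining DekCon libraries and differed by -0.16 (SE 0.11, limma adjusted p = 0.933), and Uhrf1 averaged 396 ± 28 and differed by -0.13 (SE 0.12, limma adjusted p = 0.943; SD, n = 3). In DekCon replicate 2, Dnmt1 was 1.62 times and Uhrf1 1.78 times the mean of the other 3 DekCon libraries, whereas the other 8 of the 10 genes were between 0.901 and 1.13 times and the median gene with a mean of at least 50 was 1.06 times. Cell cycle genes were high in the same library: the summed level of 20 cell cycle phase genes was 14952 there, 1.69 times the mean of the other DekCon libraries, which held 8486, 9890 and 8230, while the DekTg libraries held 7576 to 9509. Of these 20 genes 19 had their highest value of all 8 libraries in DekCon replicate 2, where 32.0% of genes with a mean of at least 50 did. Megakaryocyte markers summed to 10470 in that library, to between 2980 and 5360 in the other DekCon libraries and to between 2267 and 3734 in DekTg, with none of the 8 markers at 0 throughout. The part of cycling cells, of megakaryocyte-lineage RNA and of this library's other features in the Dnmt1 and Uhrf1 values was not tested; in bulk RNA, more cells expressing a gene and more RNA of it per cell cannot be told apart.

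**Figure D3:**
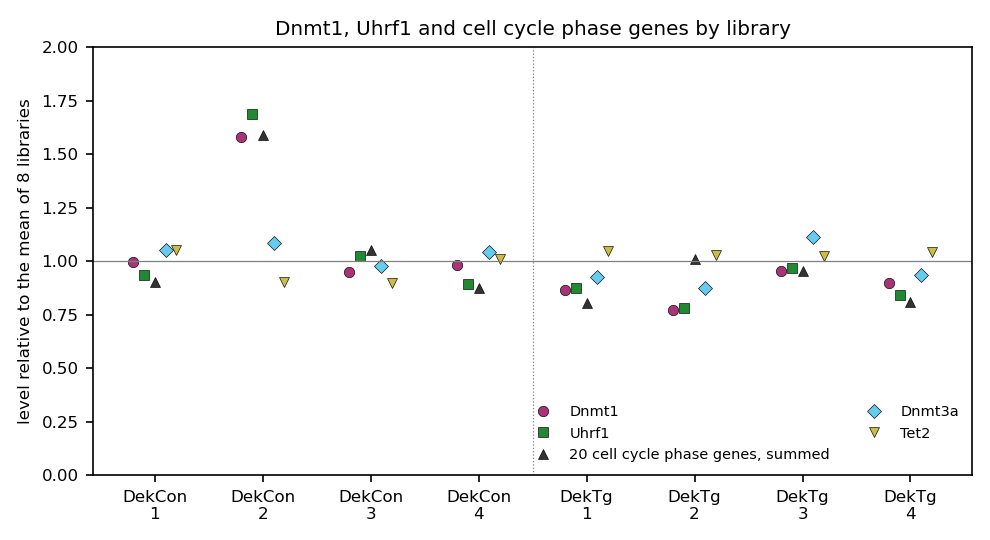
Level in each of the 8 libraries divided by the mean over the 8, for Dnmt1, Uhrf1, the sum of 20 cell cycle phase genes, Dnmt3a and Tet2. In DekCon library 2 the first 3 stand well above 1, where Dnmt3a lies near 1 and Tet2 below it; in DekTg library 2 the cell cycle sum (9509) is the highest of its group while Dnmt1 (447) and Uhrf1 (327) are the lowest of theirs.

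The cell cycle sum and these 2 genes did not follow each other in every library. DekTg replicate 2 had the highest cell cycle sum of its group, 9509, and the lowest Dnmt1 and Uhrf1 of all 8 libraries. The summed genes were split in that library. Mcm2 (490), Mcm3 (631) and Mcm5 (358) were also at their lowest of the 8 libraries there, while Top2a (1087) and Mcm6 (1733) were the highest of the DekTg group. The reason for this split was not tested. Over the 8 libraries, the genes whose log2 values were most like those of Dnmt1, among 11807 others with a mean of at least 50, were the predicted gene Gm16153 (Pearson r = 0.98), the focal adhesion protein gene Zyx (0.98) and Mcm3 (0.98), a subunit of the replicative helicase; Uhrf1 ranked 7 (0.97). These likenesses are a description over 8 libraries, of which DekCon replicate 2 is the extreme one: in it Zyx was at 918 and Mcm3 at 1175, each the highest of the DekCon group.

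The promoters of Dnmt1 and Uhrf1 are shown where they hold matches to motifs of cell cycle and growth-related factors. RefSeq promoters (GRCm38.p6, 250 bases before to 50 after a start) were matched for all 10 genes, 16 starts in all. An E2F-type motif, searched on both strands as TTTCCCGC, TTTCGCGC, TTTGCCGC or TTTGGCGC, was found at 2 of the 16, a Dnmt1 start and a Uhrf1 start; 2.26% of 32851 promoters hold one. The core of the NRF1-type motif, CGCATGCG, which is its own reverse complement, was found at 3 of the 16, the same 2 and a further Dnmt1 start, and in 1.87% of all promoters. No E2F-type match overlapped an NRF1-type match in these windows. Motifs were chosen after values and sequences had been seen, so their hits at these genes are no test of a link to the cell cycle genes. A match is a description of letters, not of binding. Every motif word contains a CpG dinucleotide, and the 16 windows held a median of 23 CpG against 7 over all promoters. The shares over all promoters are therefore not a matched comparison. Below, capitals mark the match, and each sequence reads 5′ to 3′ on the strand of the gene.
Uhrf1, the 250 bases before the start at 56304313 (chr17:56304063-56304312, plus strand), E2F-type match first and NRF1-type match second: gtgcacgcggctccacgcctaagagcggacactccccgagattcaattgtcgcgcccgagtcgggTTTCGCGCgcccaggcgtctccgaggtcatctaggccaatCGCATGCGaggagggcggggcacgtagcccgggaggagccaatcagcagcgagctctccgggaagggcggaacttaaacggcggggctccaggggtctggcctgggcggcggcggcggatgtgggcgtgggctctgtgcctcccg
Dnmt1, start at 20952623, E2F-type match beginning 219 bases before it (chr9:20952824-20952853, minus strand): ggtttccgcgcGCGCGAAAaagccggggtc
Dnmt1, same start, E2F-type match beginning 33 bases after it (chr9:20952574-20952603, minus strand): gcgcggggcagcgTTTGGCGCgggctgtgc
Dnmt1, same start, NRF1-type match (chr9:20952590-20952619, minus strand): cagccagggcgCGCATGCGcggggcagcgt
Dnmt1, start at 20952979, NRF1-type match (chr9:20952931-20952960, minus strand): cctccgttgcgCGCATGCGcactcccttcg
The 16 promoter windows held 2 to 57 CpG dinucleotides (median 23), against a median of 7 over all promoters; the Tet2 window held 57, and 1 of the 3 Dnmt1 windows held 2.

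Of the enzymes that set new methylation, Dnmt3a had a coefficient of variation of 4.48% in DekCon and 10.8% in DekTg, and Dnmt3b one of 12.4% and 7.47%. Dnmt3a (chromosome 12, 3806007 to 3914443, plus strand) gave 629, 650, 583 and 624 normalized reads in DekCon and 553, 523, 666 and 561 in DekTg. Of the DekTg libraries 3 lay below every DekCon value and replicate 3 lay above all of them. The log2 difference was -0.12 (SE 0.12, 95% interval -0.36 to 0.13, limma adjusted p = 0.856), and it turned to 0.04 with quantile normalization. An antisense gene, Dnmt3aos, shares 133 exon bases with Dnmt3a and held 5.40 to 13.2 normalized reads; the strand setting of the counting is not given in the sources used here, so a small share of its reads could be counted for either. The genes most like Dnmt3a over the 8 libraries were Zfp114 (r = 0.96), Gsn (0.95) and Psmd13 (0.95). As they were picked for the highest r among 11807 genes, this is a description only.

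Dnmt3b (chromosome 2, 153649450 to 153687730, plus strand) gave 183, 172, 138 and 180 in DekCon and 155, 144, 146 and 169 in DekTg. DekCon replicate 3 was the lowest of the 8 and the other DekCon libraries were the 3 highest. The difference was -0.12 (SE 0.14, 95% interval -0.42 to 0.17, limma adjusted p = 0.865). The germline paralogs were near the limit of detection, with 1 to 6 reads a library for Dnmt3c, whose sequence is so close to Dnmt3b that reads may not be told apart, and 1 to 8 reads for the catalytically inactive Dnmt3l.

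Uhrf2, the paralog of Uhrf1 (chromosome 19, 30030513 to 30093722, plus strand), gave 409, 437, 432 and 401 in DekCon and 348, 496, 374 and 364 in DekTg. It was highest in DekTg replicate 2, where Uhrf1 was lowest, and the other 3 DekTg libraries lay below all DekCon libraries. The difference was -0.10 (SE 0.13, 95% interval -0.37 to 0.18, limma adjusted p = 0.896), -0.21 without DekTg replicate 2 (limma adjusted p = 0.627), and 0.01 with quantile normalization.

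Of the 3 TET genes, Tet1 and Tet2 averaged slightly higher in DekTg and Tet3 slightly lower. The groups overlapped for each, and none passed limma's adjusted threshold. Tet1 (chromosome 10, 62804570 to 62908996, minus strand) gave 792, 833, 864 and 787 normalized reads in DekCon and 854, 936, 918 and 854 in DekTg. All 4 DekTg libraries lay above the DekCon mean of 819 ± 36, but DekCon replicate 3 exceeded 2 of them. The difference was 0.12 (SE 0.11, 95% interval -0.11 to 0.35, limma adjusted p = 0.842), and 0.28 with quantile normalization (SE 0.10, limma adjusted p = 0.782).

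Tet2 (chromosome 3, 133463679 to 133545139, minus strand) gave 415, 355, 354 and 399 in DekCon and 414, 405, 404 and 412 in DekTg. The DekTg libraries lay close together, with a coefficient of variation of 1.21% where counting alone would give 4.97%, while the DekCon libraries fell into a higher pair, 1 and 4, and a lower pair, 2 and 3. The difference was 0.10 (SE 0.11, 95% interval -0.14 to 0.35, limma adjusted p = 0.864). The antisense gene Gm42567, which shares 43 exon bases with Tet2, held at most 4.20 normalized reads. Nearest to Tet2 in pattern were Lipa (r = 0.97), the interferon receptor chain gene Ifnar2 (0.97) and Nek6 (0.97). These too were picked for the highest r among 11807 genes over 8 libraries and are a description only.

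Tet3 (chromosome 6, 83362373 to 83459084, minus strand) gave 354, 381, 347 and 306 in DekCon and 300, 282, 312 and 372 in DekTg. DekTg replicate 4 was the second highest of the 8 and the other DekTg libraries were low, with DekCon replicate 4 among them. The difference was -0.14 (SE 0.13, 95% interval -0.41 to 0.13, limma adjusted p = 0.843), and it ran from -0.22 without DekTg replicate 4 to -0.08 without DekTg replicate 2.

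The isocitrate dehydrogenases were the most variable of the 10 genes within DekTg, with coefficients of variation of 22.9% for Idh2 and 22.3% for Idh1. Idh2 (chromosome 7, 80094846 to 80115392, minus strand) gave 740, 623, 477 and 712 in DekCon and 686, 418, 651 and 743 in DekTg. One library in each group was low, DekCon replicate 3 and DekTg replicate 2, and the groups covered nearly the same range. The difference was -0.04 (SE 0.18, 95% interval -0.42 to 0.33, limma adjusted p = 0.974), and its sign changed in 6 of 24 alternatives, from -0.18 without DekCon replicate 3 to 0.14 without DekTg replicate 2.

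Idh1 (chromosome 1, 65158616 to 65186500, minus strand) gave 195, 166, 177 and 179 in DekCon and 129, 208, 179 and 140 in DekTg. DekTg replicate 2, lowest for Idh2, was highest for Idh1, and DekTg replicates 1 and 4 were the lowest pair of the 8. The difference was -0.15 (SE 0.16, 95% interval -0.48 to 0.18, limma adjusted p = 0.856), -0.28 without DekTg replicate 2 and -0.05 without DekTg replicate 1.

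DekTg replicate 2 thus stood at an extreme for most of these genes: it was the lowest of the 8 libraries for 5 of the 10 (Dnmt1, Dnmt3a, Tet3, Uhrf1 and Idh2) and the highest for 3 (Tet1, Uhrf2 and Idh1). Among genes with a mean of at least 50, 21.3% were lowest and 16.1% highest in that library. Libraries 1 and 4 of DekTg never gave the highest value except that of Idh2, in replicate 4.

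Per kilobase of merged exons, Idh2 had the highest level in both groups and Tet3 the lowest. Over the 8 libraries the means in normalized reads per kb were 244 for Idh2, 98.1 for Uhrf1, 78.4 for Dnmt1, 61.9 for Idh1, 55.3 for Tet1, 47.4 for Uhrf2, 36.0 for Dnmt3a, 31.5 for Dnmt3b, 23.4 for Tet2 and 19.9 for Tet3. The ranges of neighbours in this order overlapped except between Uhrf2 and Dnmt3a and between Dnmt3b and Tet2, although within each library Idh2 exceeded Uhrf1, Uhrf1 exceeded Dnmt1 and Dnmt3a exceeded Dnmt3b in 8 of 8 cases. Idh1 exceeded Tet1 in 6 of 8 libraries, and Tet2 exceeded Tet3 in 7 of 8. The order depends on the gene model. Per kb of the longest annotated transcript, Uhrf2 rose from the sixth place to the third, at 115 against 116 for Uhrf1, and Dnmt3a stood at 61.8 beside Tet1 at 59.5.

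Shares within families were taken per kb of merged exons in each library. Tet1 made up 55.0 ± 1.8% of the TET sum in DekCon and 57.2 ± 2.4% in DekTg, Tet2 23.5 ± 2.2% and 24.0 ± 0.7%, and Tet3 21.5 ± 1.5% and 18.8 ± 2.2% (SD, n = 4 each). Per kb of the longest transcript the Tet1 share was 43.8 ± 1.9% and 45.7 ± 2.3%. Dnmt1 made up 55.1 ± 5.5% of the 3 methyltransferases in DekCon, with 63.0% in the highest library, and 51.4 ± 0.8% in DekTg. These shares were not tested.

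**Figure D4:**
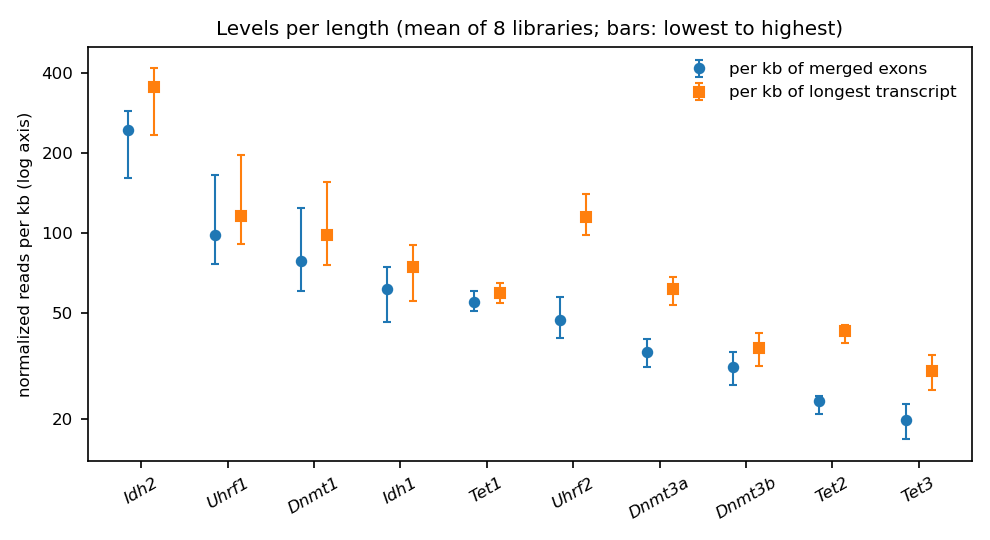
Normalized reads per kb (log axis) of the 10 genes, ordered by level per kb of merged exons; circles use merged exons, squares the longest annotated transcript, and bars run from the lowest to the highest of the 8 libraries. Idh2 is highest and Tet3 lowest by either length (244 and 19.9 per kb of merged exons), while Uhrf2 moves from 47.4 to 115.

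Other genes were taken from 6 lists, 106 genes in all: lists of the pathway and a list of 20 cell cycle phase genes. Of the 106, 0 passed limma's adjusted threshold in either direction, and edgeR and DESeq2 also called 0. An unadjusted limma p under 0.05 was held by 13, beside 6.93% of all genes tested. Of the 106 differences 19 lay above 0, with 0 of the 20 cell cycle phase genes among them. Of well-expressed genes 71.0% lay below 0. With quantile normalization the 6 list medians ran from -0.13 to 0.0015, and that of the 2-oxoglutarate, succinate and 2-hydroxyglutarate enzymes turned sign; without DekCon replicate 2 they ran from -0.11 to -0.03. Of 18 further methyltransferase cofactors, 2 lay above 0 and the median log2 difference was -0.12. The DNA ligase Lig1, whose methylated form is bound by Uhrf1, averaged 279 ± 76 in DekCon and 211 ± 45 in DekTg (-0.39, SE 0.19, limma adjusted p = 0.717), and -0.22 without DekCon replicate 2. The germline factor Dppa3 held at most 4 reads in any library and 0 in 4 of them.

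Of 12 readers of methylated DNA and related CpG-binding proteins, 4 lay above 0 and the median was -0.16. Cxxc1, which binds unmethylated CpG and belongs to a histone methyltransferase complex, gave 124 ± 34 in DekCon and 83.4 ± 23.3 in DekTg (-0.57, SE 0.21, limma adjusted p = 0.711), and Zbtb38, a zinc finger protein that binds methylated DNA, gave 1802 ± 147 and 1476 ± 235 (-0.30, SE 0.13, limma adjusted p = 0.711).

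Of 21 TET partners and base excision genes that finish active demethylation, 7 lay above 0 and the median was -0.14. The glycosylase Neil3 was at 201 ± 62 and 141 ± 13 (-0.47, SE 0.18, limma adjusted p = 0.711), with the highest value, 291, again in DekCon replicate 2, without which it was -0.28. The repair scaffold Xrcc1 was at 122 ± 26 and 82.8 ± 30.6 (-0.62, SE 0.26, limma adjusted p = 0.711), and at -0.30 without DekTg replicate 2, its lowest library. Thymine DNA glycosylase, Tdg, which removes the oxidized bases that TET enzymes make, was at 320 ± 48 and 308 ± 16.

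Of 19 enzymes around 2-oxoglutarate, succinate and 2-hydroxyglutarate, 3 lay above 0 and the median was -0.17. Idh3g, a subunit of the NAD-dependent isocitrate dehydrogenase, was at 929 ± 103 and 760 ± 111 (-0.29, SE 0.13, limma adjusted p = 0.711). D2hgdh, which clears D-2-hydroxyglutarate, was at 139 ± 18 and 146 ± 20.

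In the cycle that makes S-adenosylmethionine, the methyl donor, 3 of 16 genes lay above 0 and the median was -0.15. Methionine synthase, Mtr, had the smallest unadjusted limma p of all 106 genes (0.00105): it gave 150, 141, 119 and 142 in DekCon and 84.9, 100.9, 95.1 and 91.3 in DekTg. The groups did not overlap, as for 3.97% of all genes tested, and the difference of -0.56 (SE 0.14) did not pass (limma adjusted p = 0.639). Mtrr, the reductase that keeps Mtr active, was at 73.7 ± 19.0 and 45.1 ± 4.5 (-0.66, SE 0.20, limma adjusted p = 0.707), with DekCon replicate 2 at 47.8, inside the DekTg range of 38.7 to 49.3. Of the 20 cell cycle phase genes 0 lay above 0, with a median of -0.29, and -0.11 without DekCon replicate 2; Ccnb1 was at -0.57 (limma adjusted p = 0.711) and Plk1 at -0.62 (limma adjusted p = 0.711), or -0.28 and -0.29 without that library.

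Some markers of other cell types passed the test, and their part in the values above was not tested. Of all genes tested, 0.0347% passed, 6.93% had an unadjusted limma p under 0.05 and 3.97% had groups that did not overlap. Of 10 erythroid markers 3 passed, the globins Hbb-bs, Hba-a1 and Hba-a2, all higher in DekTg, and 8 of 10 lay above 0. In this list 6 had an unadjusted limma p under 0.05, and the groups of 4 did not overlap. The erythropoietin receptor Epor (-1.06, limma adjusted p = 0.711) and the erythroid transcription factor Klf1 (-0.89, limma adjusted p = 0.727) lay below 0 and did not pass. The erythroid list summed to 326 to 694 normalized reads in DekCon and 688 to 826 in DekTg, with overlapping groups. Of 10 B lymphoid markers 2 passed, Igkc and Jchain, which encode antibody chains and were both higher in DekTg, and the list summed to 603 to 860 and 1872 to 2935. Most of the gap between these sums lay in Igkc, at 102 to 302 and 1134 to 2004, and Jchain, at 38.6 to 81.1 and 175 to 430. Of the 10, 9 lay above 0 and Igll1 lay below (-0.35, limma adjusted p = 0.711). An unadjusted limma p under 0.05 was held by 4, and the groups of 4 did not overlap. Of 8 megakaryocyte markers 0 passed, 6 had an unadjusted p under 0.05 and 8 lay below 0, with a median log2 difference of -0.75; the groups of 2 did not overlap, and the list summed to 2980 to 10470 in DekCon and 2267 to 3734 in DekTg. Each of the 8 was highest in DekCon replicate 2. Of 10 stem cell markers 0 passed, 4 had an unadjusted p under 0.05 and 3 lay above 0, with a median of -0.21; the groups of 1 did not overlap. The stem cell list summed to 4397 to 5800 in DekCon and 3793 to 4297 in DekTg, with no overlap between the groups. Myeloid markers (0 of 12 passed) summed to 4208, 11194, 11181 and 4260 in DekCon libraries 1 to 4 and to 2599, 5147, 13968 and 2538 in DekTg. Libraries 1 and 4 were thus the lower pair in both groups. In DekTg replicate 3, S100a8 was at 4181, against 98.7 to 592 in the other DekTg libraries. T and NK markers (0 of 8) ranged from 564 to 967 in DekCon and 498 to 693 in DekTg, and stromal and endothelial markers (0 of 8) from 732 to 962 and 873 to 1001. In the myeloid, the T and NK, and the stromal and endothelial lists, 3, 1 and 1 markers had an unadjusted limma p under 0.05, and the groups of 1, 0 and 0 did not overlap. No marker of these lists was at 0 in all libraries. Of the sort markers, Slamf1 (CD150) was 268 ± 31 for DekCon and 201 ± 12 for DekTg (SD; n = 4; limma adjusted p = 0.711), Cd48 at 128 to 259 in all 8 libraries, Kit at 1072 to 1557 and Ly6a (Sca-1) at 110 to 248.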

How the data were processed

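RNA from 8 samples was amplified by Geo-seq, a protocol for small cell numbers, and made into libraries by tagmentation, per the labels' protocols. The tools named, per the submitters' processing notes, are HTSeq, DESeq2, Cufflinks 2.1.1 and Bowtie 0.12.9, on mm10; their roles, the gene models used and strandedness are not given. The table is named FPKM, but the deposited signal per gene is a read count that the authors scaled by a library's size factor. Of 417792 values, 99.994% are whole multiples of 1 step per library (tolerance 0.001 reads). The steps equal the reciprocals of median-of-ratios size factors within a relative gap of 4.2e-05. The values are called normalized read counts. They are not scaled for gene length. The 25 values that are not whole lie in 6 genes, Dek among them and none of the 10. The test fitted any normalized value on a log scale and was kept.

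Genes with a value of at least 1 in at least 4 of 8 libraries were tested with limma 3.58.1 (R 4.3.3; mean-variance trend, no covariates, two-sided, Benjamini-Hochberg adjustment over 37414 genes) on log2(value + 1), a scale that understates changes of low genes. On simulated reads for this comparison (36494 genes tested), the test recovered 100% of 4-fold and 95% of 2-fold changes among well-expressed genes, with 6 false calls. The simulated libraries were drawn independently, with no outlying library such as DekCon replicate 2 and no alike pair such as libraries 1 and 4. These rates therefore do not give the share of real changes that would be found. EdgeR 4.0.16 and DESeq2 1.42.0 were run on the recovered reads without the 6 genes. Recovered reads of the 10 genes ran from 120 to 1036 per library; without molecular identifiers, they show counting error only in part. Levels per kb used GENCODE M21 on GRCm38. The members and lists were chosen with earlier results of these data known. Named were the 10 genes, Dek, the sort markers, the 2 genes of smallest p in each list, the 3 genes most like Dnmt1, Dnmt3a and Tet2, and overlapping genes, except 1 list gene that is not reported here; Dnmt3c, Dnmt3l, Tdg, D2hgdh and the stem cell markers were named after their values were seen. Of 186 list symbols, all were in the table and tested.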

Additional observations from a re-analysis of the deposited data

Results flagged for a closer look

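Of 56 groups of 4 libraries checked, 4 held a library far from the other 3, where chance flags about 1 in 20. For Dnmt1, DekCon replicate 2 lay at 915 normalized reads against 549 to 577 in the other DekCon libraries. For Uhrf1 the same library lay at 704 against 372 to 427. For Kit, DekCon replicate 3 lay at 1072 against 1346 to 1396. For Dppa3, DekTg replicate 2 held 1.20 normalized reads, which is 1 read, against 0 in the other DekTg libraries.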

How the results depend on the processing

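The 10 genes numbered 0 past the threshold in all 24 alternatives, as did the 106 genes of the related lists. Of all genes tested 13 passed, against 4 without limma's trend, 8 on leaving out the 6 genes with non-integer reads, 15 with the replicate block, and 13 to 21 on leaving out each library in turn, with 21 without DekTg replicate 2. With libraries 1 and 4 of each group averaged, 12 passed and the median of the 10 genes was -0.08. Signs turned with quantile normalization for Dnmt3a (0.04), Uhrf2 (0.0115) and Idh2 (0.1129), and for Idh2 with scaling to total reads (0.0423) and sample weights (0.0096); leaving out each library in turn took Idh2 from -0.1762 to 0.1384. The cause was not tested. Scaling to total reads moved the median of all genes to 0.08 and that of the 10 to -0.03. Per kb of the longest transcript, a shorter length by construction, the mean levels were 98.6 for Dnmt1, 61.8 for Dnmt3a, 37.2 for Dnmt3b, 59.5 for Tet1, 43.0 for Tet2, 30.4 for Tet3, 115 for Uhrf2, 74.5 for Idh1 and 353 for Idh2. By the labels, libraries of the 2 groups share only a replicate number: deviations of same-numbered libraries correlated at 0.01 to 0.16, over 0.1 in 1 of 4 pairs, and 2 of 8 libraries correlated best with their own number. Pairs of unlike number went further both ways, with DekCon replicate 3 at 0.275 with DekTg replicate 2 and at -0.27 with DekTg replicate 4. Whether libraries of the 2 groups share a feature that the labels do not give was not tested. Differences under 2-fold can be missed at this depth and number of libraries.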
